A study of Mus musculus with 9 samples.

Results

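The genes described here are 37 genes of the hypoxia response and of glycolysis, measured in mouse mammary carcinoma cells that had survived chemotherapy and in the cells they came from. They were chosen by name, as the enzymes of glycolysis and genes known to be induced by low oxygen or to act in the response to it. Earlier results of these data were known when they were chosen, so their shares beside those of all genes are descriptive. A probe set that the array's annotation assigns to a single gene was found for 35 of the 37, out of 19938 genes so measured. Gpi1 and Eno1, the isomerase and the ubiquitous enolase of glycolysis, had none in the annotation used and are not analysed here. The 35 comprised 13 glycolytic enzymes, the 2 oxygen-regulated factors Hif1a and Epas1, and 20 other hypoxia-linked genes.

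RNA was taken from 3 wells each of 3 lines and hybridized to 9 Affymetrix whole-transcript arrays. DR500 cells are the survivors of doxorubicin, an anthracycline, raised in steps to 500 ng/ml. The labels give this selection as up to 2 weeks, while the paper's methods describe 1 week at each of several rising doses. MR20 cells outlived a selection with the antifolate methotrexate, which the labels give as 20 µg/ml for up to 2 weeks. The paper states that dose in ng/ml. Both lines were grown without drug for a further 2 weeks. 4T1 is the untreated parental line, a triple-negative mammary adenocarcinoma line that grows in BALB/c mice. Some label fields of DR500 name methotrexate, while their protocol and the study's methods name doxorubicin, which is the drug used here. The titles call the 4T1 and MR20 arrays biological replicates and the DR500 arrays only samples, while the paper's captions speak of biological triplicates. Each selected line is the outcome of 1 selection. The p-values measure the spread between wells of a line, not between selections, and that spread may be technical. Array batches and scan dates are not given in the sources used here, so a batch of 1 line's arrays cannot be told apart from that line. The DR500 samples carry a separate run of sample numbers from those of 4T1 and MR20. Whether they were processed apart is not given either, which limits both comparisons with DR500. Within a line, arrays correlated at 0.995 to 0.999 over all genes, and between lines at 0.966 to 0.987.

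The lines differed in the markers of their cell type. The mean of 6 epithelial markers was 8.89 to 8.93 on the DR500 arrays and 12.09 to 12.12 on the MR20 arrays, against 11.66 to 11.70 on the 4T1 arrays (log2 values). In DR500 cells 5 of the 6 fell, with Krt7, a luminal keratin, at -5.67, Epcam at -4.19 and Cdh1, which encodes E-cadherin, at -3.84 on the log2 scale. In MR20 cells 4 of the 6 rose, Krt14 by 2.24, Krt7 by 0.22, Krt18 by 0.21 and Krt8 by 0.19. Epcam (-0.17) and Cdh1 (-0.11) did not pass there. The mean of 6 fibroblast markers was 6.66 to 6.72 on the DR500 arrays and 6.06 to 6.15 on the MR20 arrays, against 6.17 to 6.27 on the 4T1 arrays. Of these 6, only 2 passed the test in DR500, the receptor gene Pdgfra at 1.70 and Dcn at 0.56. In MR20 only Pdgfra passed, at -0.63. No marker of leukocytes or endothelium passed in either line against 4T1. Every DR500 result below goes with this shift in markers, whose part in the result was not tested.

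Glycolysis turns glucose into pyruvate and, where pyruvate is not oxidized, into lactate, and carcinoma cells often run it at a high rate. When oxygen is scarce the prolyl hydroxylases encoded by the Egln genes stop marking the alpha subunits of the hypoxia-inducible factors for degradation. The stabilized factors then raise the transcription of glucose transporters, most glycolytic enzymes, carbonic anhydrases that regulate pH, mitophagy receptors and collagen-modifying enzymes. The factors are controlled mainly through protein stability, which arrays do not measure.

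In DR500 cells most of the measured members were higher than in 4T1 cells, whereas in MR20 cells they moved in both directions. Against 4T1, 23 members rose in DR500 and 7 fell, that is 65.7% and 20.0% of the 35, at an adjusted p under 0.05 in limma. Of all genes tested, 20.2% rose and 21.3% fell in that comparison, so the share of members that fell was near that of all genes. In MR20, 8 members rose and 12 fell, or 22.9% and 34.3%, where 15.4% and 17.1% of all genes did. In DR500 against MR20, 23 members were higher and 4 lower, where 21.2% and 20.6% of all genes were. A change over 2-fold beside the same adjusted p was called for 5 members in DR500 against 4T1 (14.3%, with 5.56% of all genes), for 6 in MR20 against 4T1 (17.1%, with 2.49%) and for 8 in DR500 against MR20 (22.9%, with 6.1%). The first pair of comparisons share the 4T1 arrays.

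The count of 8 members that rose in MR20 rested on small differences. It was 5, 5 and 4 without 4T1 replicate 1, 2 and 3, and 4, 5 and 5 without MR20 replicate 1, 2 and 3. In DR500 the split of all genes past the threshold moved with the scaling of the arrays. Higher genes made up 48.8% of it as deposited, 61.8% after a repeated quantile normalization and 62.0% with each array centred on its median. The members split 24 higher and 6 lower under both of those scalings.

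The medians of the glycolytic enzymes and of the other hypoxia-linked members shared a direction in DR500 cells and lay apart in MR20 cells. The difference between these groups was not tested. In MR20 each held both directions, with 3 rises and 3 falls among the enzymes and 4 rises and 9 falls among the others. In DR500 against 4T1 the median log2 difference was 0.39 for the 13 enzymes and 0.30 for the 20 other members, with 0.07 over all genes tested. In MR20 against 4T1 it was 0.01 for the enzymes and -0.15 for the others, with -0.01 over all genes. Array by array, the median of the enzymes relative to the 4T1 mean was 0.44, 0.36 and 0.38 on the DR500 arrays and 0.07, 0.01 and -0.06 on the MR20 arrays, with 0.03, 0.00 and -0.04 on the 4T1 arrays themselves. The median of the other members was 0.24, 0.33 and 0.29 on the DR500 arrays and -0.12, -0.24 and -0.18 on the MR20 arrays, with 0.02, -0.01 and -0.01 on the 4T1 arrays. For both groups of genes the DR500 arrays thus lay above the 4T1 arrays without overlap, while the MR20 arrays overlapped the 4T1 arrays for the enzymes and lay below them for the other members.

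**Figure D1:**
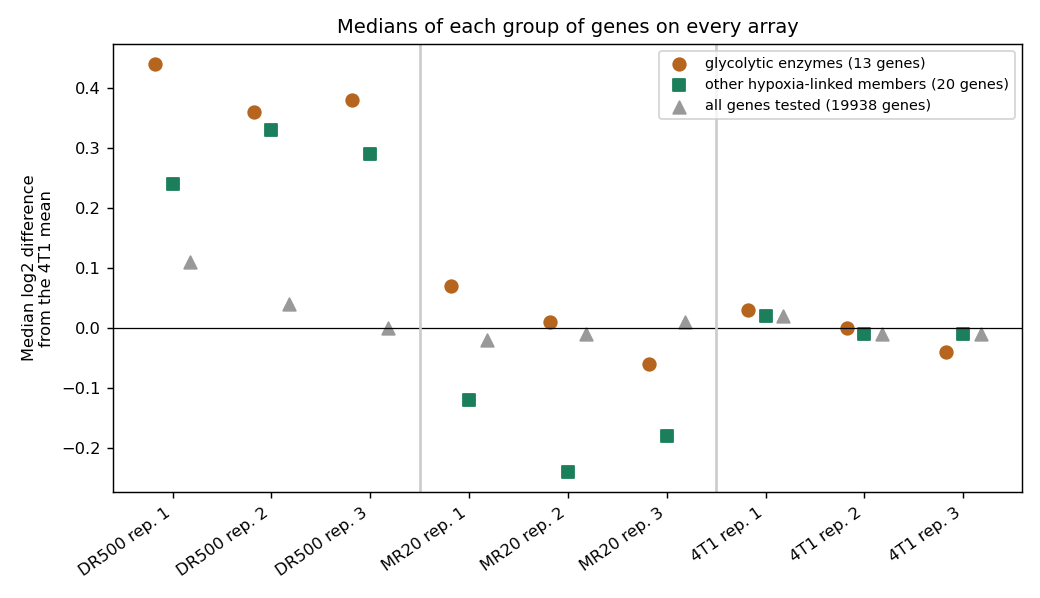
Median log2 difference from the 4T1 mean (y axis) of 13 glycolytic enzymes, 20 other hypoxia-linked members and all 19938 genes tested on each of the 9 arrays (x axis). Both groups of members sit above 0.2 on every DR500 array, and on the MR20 arrays the other members sit between -0.24 and -0.12.

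The promoters of the members that moved most are shown because the hypoxia-inducible factors bind a short core. RefSeq promoter windows on build GRCm38.p6, from 250 bases before to 50 bases after a transcription start, were at hand for 32 of the 37 genes, as 44 windows. They were searched for ACGTG and GCGTG on both strands. The letters ACGTG occur on both strands at once where a window holds CACGTG. One or the other core was in 79.5% of the members' windows, with ACGTG in 54.5% and GCGTG in 52.3%. Over the 19177 windows of genes on the array the shares were 51.7%, 21.6% and 40.9%, and over all 32851 windows they were 43.8%, 19.6% and 32.4%. The members' windows also held more CG dinucleotides, with a median of 21 against 15 for genes on the array and 7 over all windows, and both cores contain CG. A match says only that the letters are present. The windows below belong to the 3 members with the largest falls in MR20, Car9, Ldhb and Car12, and to the 3 with the largest rises in DR500, P4ha2, Pfkfb3 and Egln3. They read 5′ to 3′ along the gene, with the cores in capitals, and for Pfkfb3 1 of its 2 windows is given.
Car9 (chr4:43506776-43507075, + strand): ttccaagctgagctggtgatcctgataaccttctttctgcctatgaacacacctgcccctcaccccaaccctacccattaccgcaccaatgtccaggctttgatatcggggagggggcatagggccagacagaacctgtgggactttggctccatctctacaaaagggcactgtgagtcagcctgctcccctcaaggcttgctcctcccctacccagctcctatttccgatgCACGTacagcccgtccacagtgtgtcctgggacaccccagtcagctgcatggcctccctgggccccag
Car12 (chr9:66713436-66713735, + strand): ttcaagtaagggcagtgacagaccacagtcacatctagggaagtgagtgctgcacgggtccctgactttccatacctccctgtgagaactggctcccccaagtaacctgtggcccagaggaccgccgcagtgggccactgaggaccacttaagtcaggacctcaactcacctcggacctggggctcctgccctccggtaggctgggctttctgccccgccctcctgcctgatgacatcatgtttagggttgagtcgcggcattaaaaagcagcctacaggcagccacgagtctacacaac
Ldhb (chr6:142507908-142508207, - strand): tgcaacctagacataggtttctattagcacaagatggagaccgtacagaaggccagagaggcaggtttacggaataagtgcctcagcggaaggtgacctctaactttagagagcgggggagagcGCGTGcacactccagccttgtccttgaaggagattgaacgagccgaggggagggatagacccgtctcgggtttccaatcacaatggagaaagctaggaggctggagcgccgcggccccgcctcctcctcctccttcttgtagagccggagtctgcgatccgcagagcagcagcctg
P4ha2 (chr11:54100674-54100973, + strand): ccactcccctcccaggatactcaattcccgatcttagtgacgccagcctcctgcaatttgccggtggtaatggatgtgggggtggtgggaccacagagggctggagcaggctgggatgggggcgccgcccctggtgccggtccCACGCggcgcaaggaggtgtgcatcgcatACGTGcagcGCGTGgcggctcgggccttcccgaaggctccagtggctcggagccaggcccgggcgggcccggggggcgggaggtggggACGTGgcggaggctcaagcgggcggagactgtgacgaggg
Pfkfb3 (chr2:11502041-11502340, - strand): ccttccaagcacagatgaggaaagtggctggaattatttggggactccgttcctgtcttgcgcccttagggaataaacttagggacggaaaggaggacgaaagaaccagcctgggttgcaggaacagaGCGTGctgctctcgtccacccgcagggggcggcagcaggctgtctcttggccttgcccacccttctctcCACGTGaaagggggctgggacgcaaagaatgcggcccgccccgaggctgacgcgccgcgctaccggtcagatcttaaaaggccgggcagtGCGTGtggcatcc
Egln3 (chr12:54203825-54204124, - strand): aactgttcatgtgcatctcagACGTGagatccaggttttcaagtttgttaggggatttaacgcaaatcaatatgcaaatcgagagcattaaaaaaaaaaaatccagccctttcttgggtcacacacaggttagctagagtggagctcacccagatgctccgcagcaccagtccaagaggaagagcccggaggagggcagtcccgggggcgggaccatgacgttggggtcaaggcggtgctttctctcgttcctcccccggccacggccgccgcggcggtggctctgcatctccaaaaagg
Car9 and Egln3 each held a single ACGTG and Ldhb a single GCGTG, whereas P4ha2 held 2 of each and Car12 held neither core. Pfkfb3 held CACGTG and 2 GCGTG in the window shown. Its other window, not printed here, held a single ACGTG and no GCGTG.

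The transcripts of the factors themselves were higher in DR500 cells. Hif1a, which encodes the broadly expressed alpha subunit, stood at 12.28, 12.39 and 12.45 on the DR500 arrays and at 12.15, 12.07 and 12.13 on the MR20 arrays, against 11.93, 11.91 and 11.91 on the 4T1 arrays. No array of either selected line overlapped the 4T1 arrays. The log2 difference from 4T1 was 0.46 ± 0.06 in DR500 (SE, limma's adjusted p = 0.000104) and 0.20 ± 0.06 in MR20 (adjusted p = 0.0215). The MR20 call was lost without 4T1 replicate 1, 2 or 3 or MR20 replicate 1 or 3, with adjusted p between 0.0532 and 0.0709. Epas1, which encodes the second alpha subunit, HIF2-alpha, gave 6.75, 6.42 and 6.51 on the DR500 arrays and 5.58, 5.68 and 5.79 on the MR20 arrays, against 5.59, 5.75 and 5.60 on the 4T1 arrays. Its MR20 arrays overlapped the 4T1 arrays, and its DR500 arrays all lay above them (0.91 ± 0.09, adjusted p = 2.14e-05). The median over all probe sets of an array was 6.24 to 6.38, so that Epas1 was a dim signal in MR20 and 4T1 cells. In RNA from whole cultures, fewer expressing cells and less RNA per cell cannot be told apart.

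The prolyl hydroxylase members Egln3 and Egln1 moved in opposite directions in both lines. Egln3, a hydroxylase whose own gene is induced by hypoxia, had values of 12.20, 12.22 and 12.18 on the DR500 arrays and 11.33, 11.37 and 11.27 on the MR20 arrays, against 11.02, 11.00 and 10.92 on the 4T1 arrays. The lines did not overlap, and Egln3 rose by 1.22 ± 0.05 in DR500 (a fold of 2.33, limma's adjusted p = 5.06e-08) and by 0.34 ± 0.05 in MR20 (adjusted p = 0.000694). Egln1, which encodes the main oxygen sensor of the family, fell by 0.36 ± 0.05 in DR500 (adjusted p = 0.000337) and by 0.19 ± 0.05 in MR20 (adjusted p = 0.0196). The MR20 fall of Egln1 no longer passed with the arrays centred on their median (-0.15, adjusted p = 0.155), nor without 4T1 replicate 1 or 2 or MR20 replicate 2 or 3 (adjusted p 0.0561 to 0.0854). Egln2, the third hydroxylase of the family and not a member, is named here after its values were seen. It rose by 0.30 ± 0.06 in DR500 (adjusted p = 0.00199) and fell by 0.20 ± 0.06 in MR20 (adjusted p = 0.0263).

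**Figure D2:**
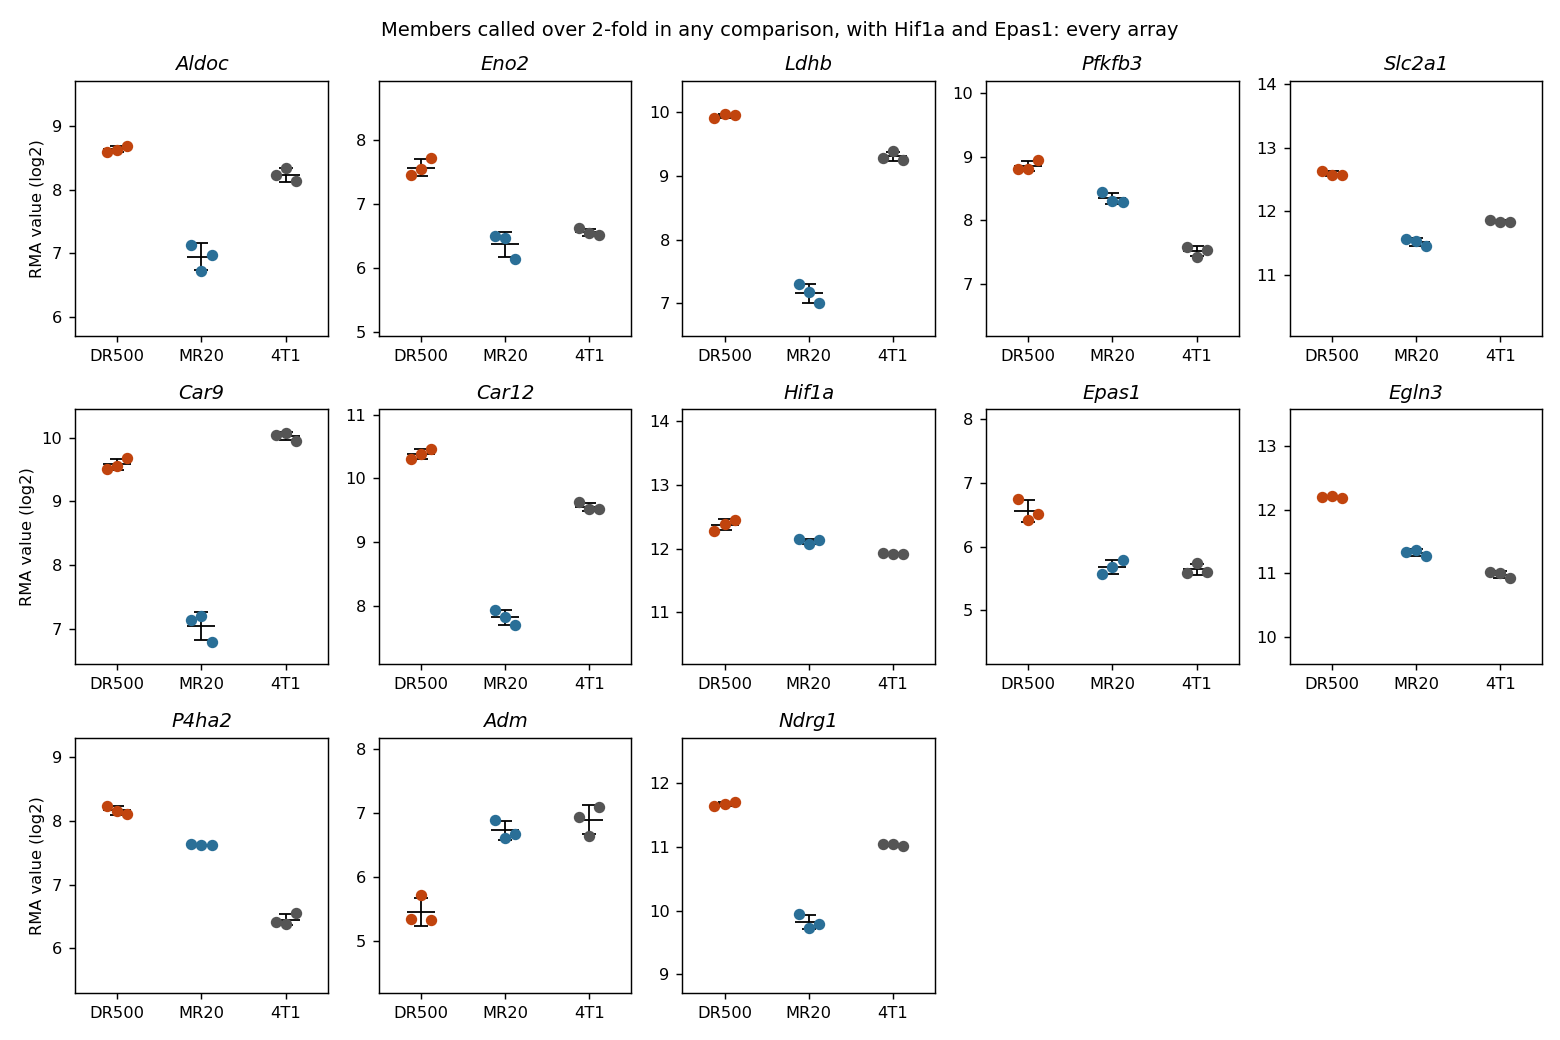
RMA values (log2, y axis) of the 11 members called over 2-fold in any comparison, with Hif1a and Epas1, on the 3 arrays of each line (points), with the mean and SD of the line (black). Car9, Car12, Ldhb, Aldoc, Ndrg1, Slc2a1 and, by a narrow margin, Eno2 are lowest on all 3 MR20 arrays, and Adm is lowest on all 3 DR500 arrays.

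Both carbonic anhydrases were far lower in MR20 cells. Car9, a membrane carbonic anhydrase and one of the most used markers of tumour hypoxia, stood at 9.51, 9.56 and 9.68 on the DR500 arrays and at 7.14, 7.21 and 6.79 on the MR20 arrays, against 10.05, 10.08 and 9.95 on the 4T1 arrays. All MR20 arrays lay below all others. Car9 fell by 2.98 ± 0.10 in MR20 (a fold of 7.88, limma's adjusted p = 2e-08) and by 0.44 ± 0.10 in DR500 (adjusted p = 0.00568), so that DR500 exceeded MR20 by 2.54 ± 0.10. Car12, a second membrane enzyme of the family, had values of 10.31, 10.39 and 10.46 on the DR500 arrays and 7.93, 7.83 and 7.70 on the MR20 arrays, against 9.63, 9.52 and 9.52 on the 4T1 arrays. The 3 lines did not overlap, with DR500 highest and MR20 lowest. Car12 rose by 0.83 ± 0.07 in DR500 (adjusted p = 7.3e-06) and fell by 1.74 ± 0.07 in MR20 (a fold of 3.33, adjusted p = 8.42e-08). Of this pair, Car9 held a core in the window shown above and Car12 did not. The Car12 window lies inside the gene, past its annotated start at chr9:66712296, and the bases around that start were not searched.

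Among the transporters, Slc2a1, which encodes the glucose transporter GLUT1, differed most. Its values were 12.64, 12.57 and 12.57 on the DR500 arrays and 11.56, 11.54 and 11.45 on the MR20 arrays, against 11.86, 11.83 and 11.83 on the 4T1 arrays. The lines again did not overlap. Slc2a1 rose by 0.75 ± 0.06 in DR500 (limma's adjusted p = 1.95e-06) and fell by 0.32 ± 0.06 in MR20 (adjusted p = 0.00118), a difference between DR500 and MR20 of 1.07 ± 0.06. Slc2a3, the gene of the transporter GLUT3, was dim on all arrays, at 5.46 to 6.06, and rose by 0.25 ± 0.08 in DR500 (adjusted p = 0.0367). This call was lost without 4T1 replicate 1 or 3 or DR500 replicate 1 or 2 (adjusted p 0.0559 to 0.142), with a replicate block (adjusted p = 0.0707), with adjustment over all probe sets (adjusted p = 0.0613) and with an intensity trend (adjusted p = 0.0679). Slc16a3, the gene of the lactate exporter MCT4, passed in neither line, at 0.13 ± 0.09 in DR500 and -0.03 ± 0.09 in MR20.

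Of the 13 glycolytic enzymes, 9 rose (69.2%) and 2 fell (15.4%) in DR500 cells, where 20.2% and 21.3% of all genes did. In MR20 cells 3 rose and 3 fell (23.1% each), where 15.4% and 17.1% of all genes did. One of the falls in DR500 is that of Hk1, whose direction is uncertain. With its other probe set the counts were 10 and 1 in DR500 and 4 and 3 in MR20. The selected lines differed most in Ldhb and Aldoc. Ldhb, the heart-type subunit of lactate dehydrogenase, stood at 9.91, 9.97 and 9.96 on the DR500 arrays and at 7.30, 7.18 and 7.00 on the MR20 arrays, against 9.28, 9.39 and 9.25 on the 4T1 arrays. No lines overlapped. Ldhb rose by 0.64 ± 0.08 in DR500 (limma's adjusted p = 8.44e-05) and fell by 2.14 ± 0.08 in MR20 (a fold of 4.42, adjusted p = 3.03e-08). A second probe set of Ldhb gave 0.60 in DR500 and -2.05 in MR20. Its partner Ldha, the muscle-type subunit favoured in glycolytic tumours, passed in neither line, at 0.16 ± 0.06 in DR500 (adjusted p = 0.0574) and 0.04 ± 0.06 in MR20 (adjusted p = 0.701). In DR500 Ldha did pass in 5 alternatives, a repeated quantile normalization (0.25, adjusted p = 0.00533), arrays centred on their median (0.22, adjusted p = 0.0379), a filter on dim genes (adjusted p = 0.023), a variance with an intensity trend (adjusted p = 0.00417) and without MR20 replicate 1 (adjusted p = 0.0486).

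Aldoc, the aldolase best known from brain, showed the same order of lines. Its values were 8.59, 8.63 and 8.69 on the DR500 arrays and 7.14, 6.72 and 6.98 on the MR20 arrays, against 8.23, 8.34 and 8.13 on the 4T1 arrays. The lines did not overlap, with a rise of 0.40 ± 0.10 in DR500 (limma's adjusted p = 0.00858) and a fall of 1.29 ± 0.10 in MR20 (a fold of 2.44, adjusted p = 7.39e-06). Aldoa, the main aldolase, rose by 0.40 ± 0.06 in DR500 and did not pass in MR20 (0.09 ± 0.06). Eno2, the enolase of neurons and neuroendocrine cells, gave 7.45, 7.55 and 7.72 on the DR500 arrays and 6.50, 6.46 and 6.14 on the MR20 arrays, against 6.62, 6.55 and 6.51 on the 4T1 arrays. All its DR500 arrays lay above the others, and the difference from 4T1 was 1.01 ± 0.10 (adjusted p = 1.92e-05), just past 2-fold, with MR20 and 4T1 values near the median of all probe sets. It was 0.99 without 4T1 replicate 3 and 0.94 without DR500 replicate 3, which left 4 members called over 2-fold.

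Of the enzymes of the first steps, Hk2, Pfkp and Pfkl rose in DR500 without passing 2-fold. Pfkp, the platelet-type phosphofructokinase, was 10.08 to 10.14 on the DR500 arrays and 9.13 to 9.26 on the MR20 arrays, against 9.16 to 9.21 on the 4T1 arrays. It rose by 0.92 ± 0.06 in DR500 (limma's adjusted p = 4.36e-07), with MR20 and 4T1 overlapping. Hk2, the inducible hexokinase, rose in DR500 (0.60 ± 0.08, adjusted p = 0.000119) and in MR20 (0.64 ± 0.08, adjusted p = 0.000142), and DR500 minus MR20 did not pass (-0.04 ± 0.08). Pfkl, the liver-type phosphofructokinase, rose by 0.39 ± 0.08 in DR500 and stood at 0.00 ± 0.08 in MR20.

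The changes of Tpi1, Pkm, Pgk1 and Pgam1 were smaller. Tpi1, the triose phosphate isomerase, rose by 0.38 ± 0.05 in DR500 and by 0.16 ± 0.05 in MR20 (limma's adjusted p = 0.0359). The MR20 rise of Tpi1 was lost without any one of the 6 arrays compared (adjusted p 0.063 to 0.112). Pkm, the pyruvate kinase of most tumours, rose by 0.38 ± 0.06 in DR500 and did not pass in MR20 (0.12 ± 0.06), though it did with an intensity trend (adjusted p = 0.0176). Pgk1, the phosphoglycerate kinase, fell by 0.16 ± 0.05 in DR500 (adjusted p = 0.0236) and rose by 0.17 ± 0.05 in MR20 (adjusted p = 0.022). The DR500 fall of Pgk1 did not pass after a repeated quantile normalization (-0.08, adjusted p = 0.23), with the arrays centred (-0.11, adjusted p = 0.203), in a fit of these lines alone (adjusted p = 0.053) or without 4T1 replicate 1 or 2 or DR500 replicate 1 (adjusted p 0.0522 to 0.0804). Its MR20 rise did not pass without 4T1 replicate 2 or 3 or MR20 replicate 1, 2 or 3 (adjusted p 0.0559 to 0.0859). Pgam1, the phosphoglycerate mutase, did not pass in DR500 (-0.14 ± 0.06) and fell by 0.19 ± 0.06 in MR20 (adjusted p = 0.0238). The fall in MR20 was lost after a repeated quantile normalization (-0.14, adjusted p = 0.132), with the arrays centred (-0.15, adjusted p = 0.0914) and without 4T1 replicate 1, 2 or 3 or MR20 replicate 1 or 2 (adjusted p 0.0551 to 0.0848). Pgam1 passed in DR500 without DR500 replicate 1 (-0.18, adjusted p = 0.0271), with a filter on dim genes (adjusted p = 0.0287) and with an intensity trend (adjusted p = 0.00781). Pgk1 and Pgam1 have 3 probe sets each with nearly equal changes, which are not independent measurements.

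The direction of Hk1, the constitutive hexokinase, depended on the probe set. The brighter of its 2 probe sets, which the rule takes, stood at 12.65, 13.15 and 12.98 on the DR500 arrays and at 13.33, 13.41 and 13.31 on the MR20 arrays, against 13.36, 13.45 and 13.53 on the 4T1 arrays. All DR500 arrays lay below the others, a difference from 4T1 of -0.52 ± 0.11 (limma's adjusted p = 0.00312). This probe set lists 1 accession, which is also listed by each of the 16 probe sets that the annotation assigns to Hk1 and to the ribosomal protein gene Rpl17 together. Those 16 moved by -0.76 to -0.34 in DR500 and by -0.33 to -0.10 in MR20. The other probe set of Hk1, which lists RefSeq mRNAs, had values of 10.05, 9.82 and 10.01 on the DR500 arrays and 10.26, 9.91 and 10.14 on the MR20 arrays, against 9.65, 9.60 and 9.53 on the 4T1 arrays. Both selected lines lay above 4T1 on it, by 0.37 in DR500 (adjusted p = 0.00966) and by 0.51 in MR20 (adjusted p = 0.00182). With the mean of its probe sets Hk1 gave -0.08 in DR500 (adjusted p = 0.33) and 0.20 in MR20 (adjusted p = 0.0257). Its direction is uncertain.

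**Figure D3:**
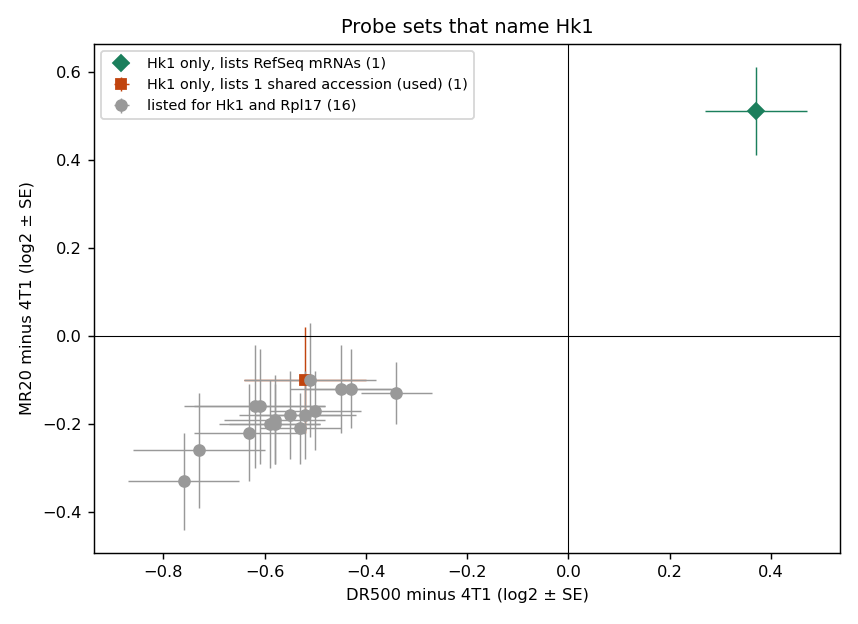
Log2 difference from 4T1 with its SE for the 18 probe sets that name Hk1, in DR500 (x axis) and in MR20 (y axis). The probe set that lists RefSeq mRNAs lies at 0.37 and 0.51, apart from the 17 others, which lie below 0 on both axes.

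The 3 members that regulate glycolytic flux all rose in DR500 cells. Their relatives outside the members moved in both directions there, with Pfkfb2 (-0.84) and Pdk3 (-0.48) lower, Pdk2 (1.41) higher and Pdk4 (0.11) not passing. Pfkfb3, a bifunctional enzyme that makes the strongest activator of phosphofructokinase, stood at 8.80, 8.81 and 8.94 on the DR500 arrays and at 8.44, 8.30 and 8.29 on the MR20 arrays, against 7.58, 7.43 and 7.53 on the 4T1 arrays. The lines did not overlap. Pfkfb3 rose by 1.34 ± 0.07 in DR500 (a fold of 2.53, limma's adjusted p = 1.59e-07) and by 0.83 ± 0.07 in MR20 (a fold of 1.78, adjusted p = 1.08e-05). Its relative Pfkfb4 rose by 0.68 ± 0.07 in DR500 and did not pass in MR20 (0.09 ± 0.07). Pdk1, the kinase that keeps pyruvate out of the mitochondrial oxidation, rose by 0.35 ± 0.09 in DR500 (adjusted p = 0.00724) and gave 0.18 ± 0.09 in MR20 (adjusted p = 0.142).

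The collagen hydroxylases held the only member called higher than 2-fold in both lines. P4ha2, a catalytic subunit of the collagen prolyl hydroxylase, stood at 8.24, 8.15 and 8.11 on the DR500 arrays and at 7.63, 7.62 and 7.62 on the MR20 arrays, against 6.41, 6.39 and 6.55 on the 4T1 arrays. The 3 lines did not overlap. P4ha2 rose by 1.72 ± 0.06 in DR500 (a fold of 3.28, limma's adjusted p = 1.18e-08) and by 1.17 ± 0.06 in MR20 (a fold of 2.26, adjusted p = 4.76e-07). Its 4T1 values lie near the median of all probe sets. The sister subunit gene P4ha1 rose by 0.52 ± 0.06 in DR500 (adjusted p = 7.78e-05) and by 0.22 ± 0.06 in MR20 (adjusted p = 0.023). The MR20 rise of P4ha1 did not pass without 4T1 replicate 1 or 3 or MR20 replicate 1 or 2 (adjusted p 0.0595 to 0.0841). Plod2, a collagen lysyl hydroxylase, passed in neither line, at -0.02 ± 0.08 in DR500 and -0.14 ± 0.08 in MR20.

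The mitophagy receptors Bnip3 and Bnip3l, which tag mitochondria for removal, rose in DR500 and fell in MR20. Bnip3 was 10.30 to 10.41 on the DR500 arrays and 9.48 to 9.57 on the MR20 arrays, against 9.90 to 9.96 on the 4T1 arrays. The lines did not overlap, and Bnip3 rose by 0.41 ± 0.06 in DR500 (limma's adjusted p = 0.000171) and fell by 0.40 ± 0.06 in MR20 (adjusted p = 0.00034). Bnip3l fell by 0.42 ± 0.05 in MR20 (adjusted p = 0.000156) and rose by 0.17 ± 0.05 in DR500 (adjusted p = 0.0234). The DR500 rise of Bnip3l did not pass without 4T1 replicate 1, 2 or 3 or DR500 replicate 2 or 3 (adjusted p 0.054 to 0.0731). Second probe sets of Bnip3 and Bnip3l had changes of the same sign in each line.

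The other hypoxia-induced members did not share a direction in DR500 cells, and in MR20 cells 3 of the 5 fell and the others did not pass. Ndrg1, a stress-induced gene often used as a marker of hypoxia, stood at 11.65, 11.67 and 11.71 on the DR500 arrays and at 9.95, 9.73 and 9.79 on the MR20 arrays, against 11.05, 11.04 and 11.02 on the 4T1 arrays. The lines did not overlap. Ndrg1 rose by 0.64 ± 0.06 in DR500 (limma's adjusted p = 1.84e-05) and fell by 1.21 ± 0.06 in MR20 (a fold of 2.32, adjusted p = 4.61e-07).

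Adm, which encodes the vasodilator peptide adrenomedullin, went the other way. It stood at 5.34, 5.71 and 5.32 on the DR500 arrays and at 6.90, 6.61 and 6.68 on the MR20 arrays, against 6.94, 6.65 and 7.10 on the 4T1 arrays. All DR500 arrays lay below the others, and the MR20 arrays overlapped the 4T1 arrays. Adm fell by 1.44 ± 0.14 in DR500 (a fold of 2.72, limma's adjusted p = 1.16e-05), to values below the median of all probe sets, and gave -0.17 ± 0.14 in MR20. Ddit4, a hypoxia-induced inhibitor of the growth kinase mTOR, fell by 0.74 ± 0.09 in DR500 (adjusted p = 7.43e-05) and by 0.85 ± 0.09 in MR20 (adjusted p = 5.62e-05). Mxi1, an antagonist of Myc, fell by 0.25 ± 0.06 in DR500 (adjusted p = 0.00544) and by 0.50 ± 0.06 in MR20 (adjusted p = 0.000107). Ankrd37, a small ankyrin repeat gene that hypoxia induces, passed in neither line, at -0.18 ± 0.07 in DR500 (adjusted p = 0.051) and -0.02 ± 0.07 in MR20. It passed in DR500 without 4T1 replicate 2 (-0.24, adjusted p = 0.0244).

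**Figure D4:**
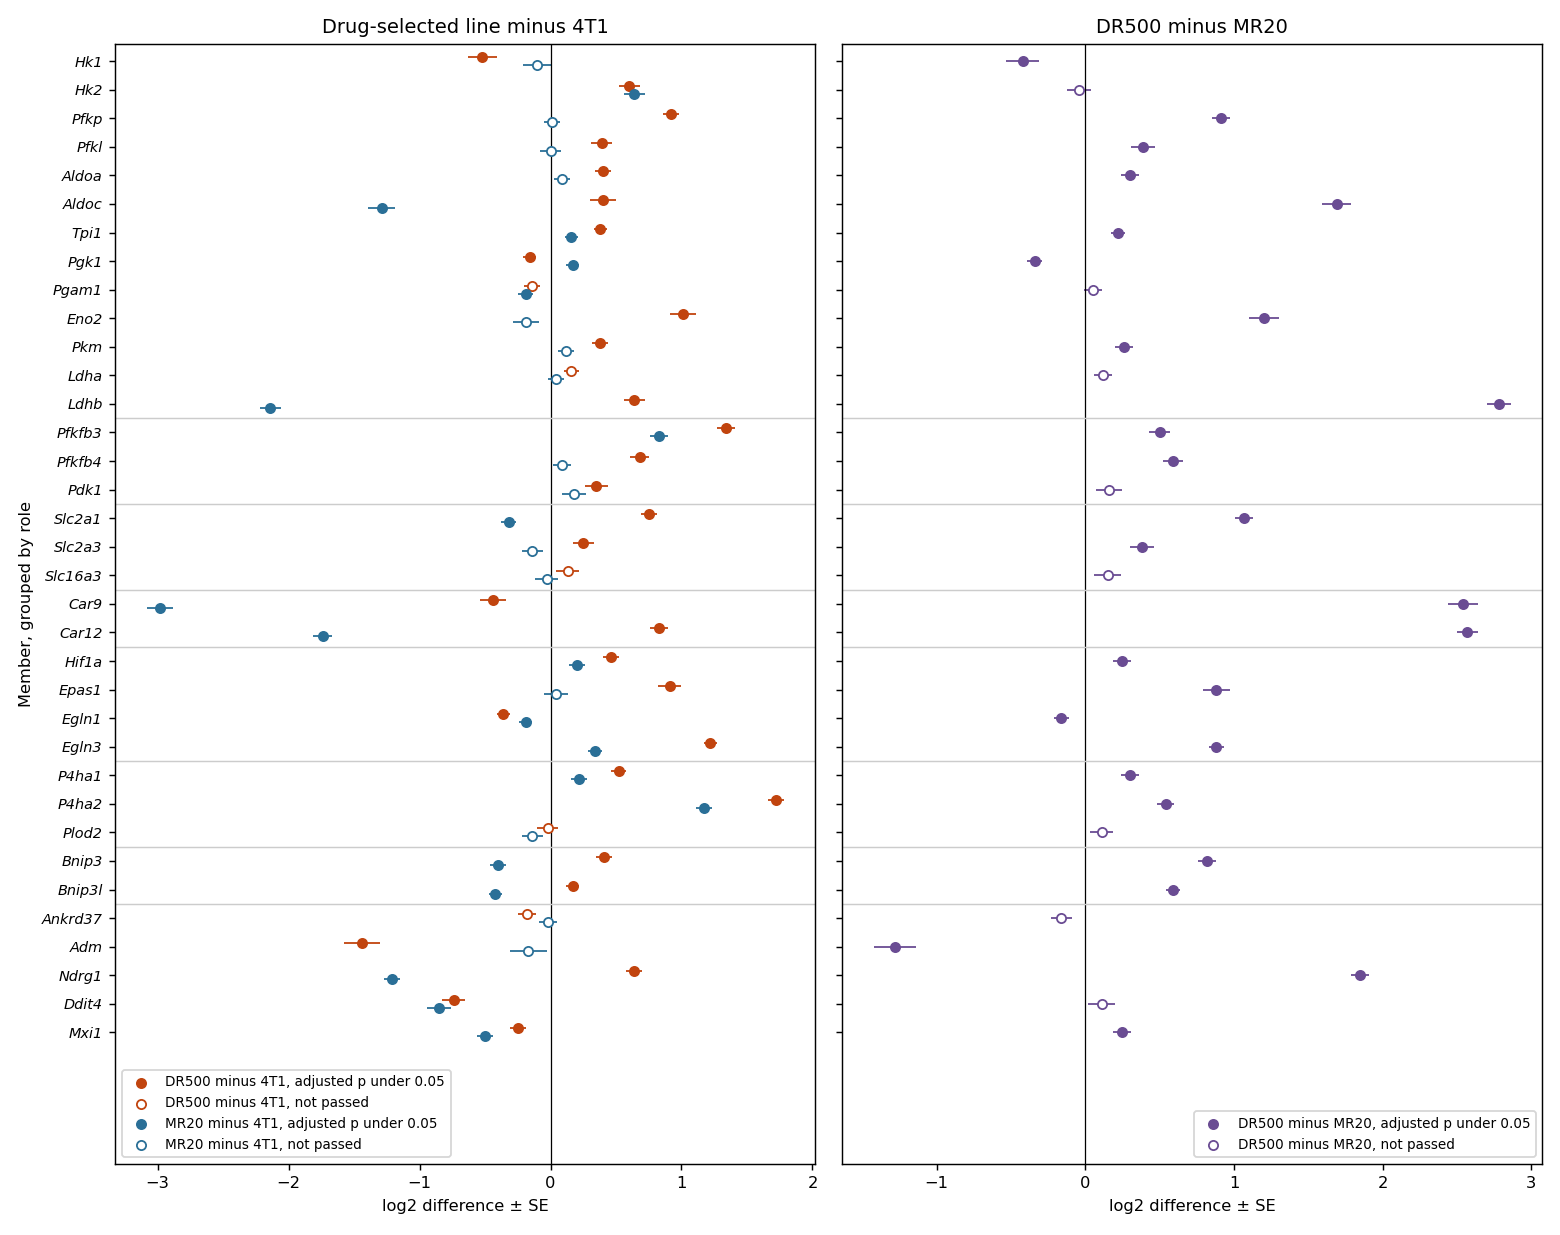
Log2 difference with its SE of the 35 measured members, grouped by role, in DR500 and MR20 minus 4T1 (left) and in DR500 minus MR20 (right). Filled points passed an adjusted p under 0.05, as 23 members above 0 and 7 below 0 did in DR500 against 4T1.

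Set side by side, 7 members rose in DR500 and fell in MR20. These were Aldoc, Ldhb, Slc2a1, Car12, Bnip3, Bnip3l and Ndrg1. Another 7, Hk2, Tpi1, Pfkfb3, Hif1a, Egln3, P4ha1 and P4ha2, rose in both lines. Car9, Egln1, Ddit4 and Mxi1 fell in both, and Pgk1 alone fell in DR500 and rose in MR20. A further 9, Pfkp, Pfkl, Aldoa, Eno2, Pkm, Pfkfb4, Pdk1, Slc2a3 and Epas1, rose in DR500 and did not pass in MR20. The share of all genes with each of these patterns was not computed, so these counts do not set the members apart from genes in general. Both lines were set against the same 4T1 arrays, so the direct test of DR500 against MR20 bears on the difference. In that test 23 members were higher in DR500 (65.7%, with 21.2% of all genes), including the 7 that rose in DR500 and fell in MR20. The 4 that were lower (11.4%, with 20.6% of all genes) were Hk1, Pgk1, Egln1 and Adm.

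The largest differences between the selected lines were those of Ldhb (2.78 ± 0.08, a fold of 6.88), Car12 (2.57 ± 0.07, a fold of 5.92), Car9 (2.54 ± 0.10, a fold of 5.80), Ndrg1 (1.85 ± 0.06, a fold of 3.60) and Aldoc (1.69 ± 0.10, a fold of 3.22). Limma's adjusted p was at most 3.84e-07 in these. Eno2 (1.20 ± 0.10) and Slc2a1 (1.07 ± 0.06) were the other members called higher in DR500, and Adm (-1.28 ± 0.14, adjusted p = 2.76e-05) was the member called lower. The median over the 13 enzymes was 0.26 and that over the 20 other hypoxia-linked members 0.44, with 0.07 over all genes tested. The small difference of Egln1 (-0.16, adjusted p = 0.0329) did not pass with the arrays centred (adjusted p = 0.119), with a replicate block (adjusted p = 0.0558), in a fit of these lines alone (adjusted p = 0.0679), without 4T1 replicate 1 (adjusted p = 0.05), or without any one of MR20 replicates 1, 2 and 3 and DR500 replicates 1 and 2 (adjusted p 0.0516 to 0.0879).

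Genes of the same pathways outside the members moved in both directions. Of 49 other hypoxia-induced genes, 17 rose (34.7%) and 12 fell (24.5%) in DR500 against 4T1, where 20.2% and 21.3% of all genes did, with a median of 0.10. In MR20, 10 rose (20.4%) and 13 fell (26.5%), where 15.4% and 17.1% of all genes did, with a median of 0.01. The share that fell in DR500 and the share that rose in MR20 were thus near those of all genes. The largest changes in DR500 were those of Stc1, the hormone stanniocalcin (2.08), Plod1, a collagen lysyl hydroxylase (2.01), and Loxl4, a lysyl oxidase (-1.59). In MR20 they were those of Kdelr3, a receptor that retrieves proteins to the endoplasmic reticulum (-2.18), Loxl4 (-1.70) and Edn1, which encodes endothelin (1.43). In DR500 against MR20, 19 were higher (38.8%) and 12 lower (24.5%), where 21.2% and 20.6% of all genes were, led by Kdelr3 (3.11), Edn1 (-2.60) and Plod1 (1.61).

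Among 16 regulators of the hypoxia-inducible factors, 6 rose (37.5%) and 5 fell (31.2%) in DR500, where 20.2% and 21.3% of all genes did. In MR20, 4 rose (25.0%) and 7 fell (43.8%), where 15.4% and 17.1% did. The ubiquitin ligase genes Siah1a (-0.81) and Siah2 (-0.78) and the scaffold Cul2 of the von Hippel-Lindau ligase (-0.67) changed most in DR500. The coactivator Ep300 (0.48), Os9 (0.47) and Siah2 (-0.43) changed most in MR20. Between the lines 3 were higher (18.8%) and 5 lower (31.2%) in DR500, where 21.2% and 20.6% of all genes were. The share that was higher was thus near that of all genes. The largest differences were those of Arnt, the partner of the alpha subunits (0.87), Hif1an, the asparaginyl hydroxylase (-0.60), and Usp20 (0.51).

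The remaining glycolysis genes and the exits from glycolysis also held both directions. The shares in parentheses read against those of all genes. These were 20.2% higher and 21.3% lower in DR500, 15.4% and 17.1% in MR20, and 21.2% and 20.6% between the lines. Of 19 other glycolysis genes, 4 rose (21.1%) and 1 fell (5.26%) in DR500, with Pfkfb2 (-0.84), the muscle phosphofructokinase Pfkm (0.72) and Fbp2 (0.39) first. In MR20, 3 rose and 3 fell (15.8% each, near the shares of all genes), with Bpgm (0.52), Slc2a8 (-0.38) and Slc2a4 (0.31) first. In DR500 against MR20, 7 were higher (36.8%) and 3 lower (15.8%), Pfkm (0.75), Bpgm (-0.68) and the lactate dehydrogenase Ldhd (0.62) being the largest. Of 16 genes of pyruvate oxidation and lactate export, 4 rose (25.0%) and 7 fell (43.8%) in DR500, led by the inhibitory kinase Pdk2 (1.41), the phosphatase subunit Pdp2 (-1.24) and the lactate transporter Slc16a1 (0.68). In MR20, 2 rose (12.5%) and 6 fell (37.5%), led by Pdhb, a subunit of pyruvate dehydrogenase (-0.82), Pdp2 (-0.65) and Pdk3 (0.64). Between the lines 7 were higher (43.8%) and 4 lower (25.0%) in DR500, with Pdk2 (1.36), Pdk3 (-1.12) and Slc16a1 (0.92) first. Of 7 pentose phosphate genes, 3 rose and 3 fell in DR500 (42.9% each), where the isomerase Rpia (-2.16), Pgls (-0.66) and Pgd (0.53) led. In MR20, 2 rose (28.6%) and 5 fell (71.4%), with Pgls (-0.56), Taldo1 (0.46) and Rpia (-0.45) first. In DR500 against MR20, 3 were higher (42.9%) and 2 lower (28.6%), led by Rpia (-1.71), H6pd (0.54) and Tkt (0.48).

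The arrestin genes Txnip and Arrdc4, which restrain glucose uptake, rose in both selected lines. Among 11 other transcription regulators of glycolysis and their glucose-responsive targets, 3 rose (27.3%) and 1 fell (9.09%) in DR500, where 20.2% and 21.3% of all genes did. Txnip rose there by 3.64 ± 0.08 (a fold of 12.5, limma's adjusted p = 4.07e-10), Arrdc4 rose by 2.16 ± 0.09 and Myc fell by 0.67 ± 0.05. In MR20, 4 rose (36.4%) and the other 7 did not pass, where 15.4% of all genes rose and 17.1% fell. The largest rises were those of Arrdc4 at 2.79 ± 0.09 (a fold of 6.91, adjusted p = 1.22e-08), Txnip at 2.04 ± 0.08 and Mlx at 0.30 ± 0.06. Between the lines 1 was higher (9.09%) and 4 lower (36.4%) in DR500, where 21.2% and 20.6% of all genes were. Txnip differed by 1.60, Myc by -0.72 and Arrdc4 by -0.63.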

How the data were processed

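Expression was measured in RNA of 9 wells of DR500, MR20 and 4T1 cells, 3 each. The authors deposited log2 values. They made them with the RMA routine of the package affy, which corrects background, normalizes quantiles between arrays and summarises probe sets. Its version, and whether all arrays were normalized together, are not given in the sources used here. The table holds 35556 probe sets, of which 21789 name 1 gene, 1621 name several and 12146 name none in the platform annotation. Names were updated by Entrez identifier (21698) or symbol (91), and the probe set with the highest mean was used where a gene had several (999 genes). Comparisons were fitted with limma (version 3.58.1, R 4.3.3; lmFit and eBayes on all 9 arrays, a mean per line, 6 residual degrees of freedom), with Benjamini-Hochberg adjustment over 19938 genes within each comparison. A gene passed at an adjusted p under 0.05 and was called when it also changed over 2-fold. Precision is bounded by having 3 arrays a line, for which exact permutation cannot give a p below 0.1.

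All members are accounted for. Those called in any comparison, with Hif1a and Epas1, are given with every array, and of each gene list the 3 genes with the largest change past the threshold are named. Members and lists were chosen with earlier results of these data known. Alternatives were a fit of the compared lines alone, a filter on dim genes, a repeated quantile normalization, centring of arrays, the mean of a gene's probe sets, adjustment over all probe sets, an intensity trend of the variance, a replicate block, leaving out each array, and, added after seeing the data, the brightest probe set that lists a RefSeq mRNA. Promoter windows come from RefSeq (GRCm38.p6).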

Additional observations from a re-analysis of the deposited data

Results flagged for a closer look

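The differences of the 2 selected lines from 4T1 were unequal for 27 of the 35 measured members, by limma's test of DR500 minus MR20 (adjusted p under 0.05). That is 77.1% of the members, where 41.9% of all genes tested passed. Both selected lines are set against the same 4T1 arrays, which cancel in this difference. Groups of 3 arrays are too small for a test of single outlying arrays.

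Values are log2 differences, DR500 minus MR20. Among the glycolytic enzymes they were Ldhb (2.78), Aldoc (1.69), Eno2 (1.20), Pfkp (0.91), Pfkl (0.39), Aldoa (0.30), Pkm (0.26), Tpi1 (0.22), Pgk1 (-0.34) and Hk1 (-0.42). Hk1 rests on the probe set whose direction is uncertain, and its difference did not pass with the other probe set (-0.14, adjusted p = 0.245). Among the regulators and transporters the differences were Pfkfb4 (0.59), Pfkfb3 (0.50), Slc2a1 (1.07) and Slc2a3 (0.38), and the carbonic anhydrases were Car12 (2.57) and Car9 (2.54). The factors and their hydroxylases were Epas1 (0.88), Hif1a (0.25), Egln3 (0.88) and Egln1 (-0.16). The collagen hydroxylases were P4ha2 (0.54) and P4ha1 (0.30) and the mitophagy receptors Bnip3 (0.82) and Bnip3l (0.59). Of the other hypoxia-induced members, Ndrg1 (1.85), Mxi1 (0.25) and Adm (-1.28) differed.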

How the results depend on the processing

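Of 1881 values of members under the alternatives, 1803 kept their side of the threshold, 62 no longer passed, 15 newly passed and 1 turned round. Direction was compared only for values that passed in the main fit, so small values that did not pass could change sign uncounted. The one that turned round was Hk1 in DR500 against 4T1, at 0.37 with the probe set that lists RefSeq mRNAs. With that probe set Hk1 in MR20 against 4T1 went from -0.10 to 0.51 and is counted as newly passed. The members that rose in MR20 numbered 4 to 8 with 1 array left out. For the medians in DR500 against 4T1, the filter on dim genes gave 0.41 for the other hypoxia-linked members, the repeated quantile normalization 0.48 for the enzymes and 0.35 for the others, and centring 0.44 and 0.35. Leaving out 1 array gave 0.24 to 0.34 for the others, with 0.24 without 4T1 replicate 3. In DR500 against MR20, the filter gave 0.54 for the others, the quantile normalization 0.31 for the enzymes and 0.48 for the others, centring 0.28 for the enzymes, and the mean of probe sets 0.22 for the enzymes. Leaving out 1 array gave 0.40 to 0.47 for the others, with 0.40 without MR20 replicate 2. The median over all genes in DR500 against 4T1 was 0.12 under the quantile normalization and under centring, and it was 0.03 without DR500 replicate 1, the array farthest from its line's mean.

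The replicate numbers do not pair the wells of different lines. The deviations of same-numbered arrays correlated at 0.237, -0.032 and 0.327 between DR500 and 4T1, at -0.078, 0.045 and -0.237 between MR20 and 4T1, and at -0.309, 0.147 and -0.294 between DR500 and MR20. With a replicate block, 22 members rose and 7 fell in DR500, and 7 rose and 12 fell in MR20. Under this block Tpi1 no longer passed in MR20 (adjusted p = 0.0514), and the block changed no other call than those of Slc2a3 and Egln1 given above. Slc2a3, Epas1, Slc16a3 and Ankrd37, Adm in DR500, Eno2 in MR20 and 4T1 and P4ha2 in 4T1 lie near or below the median of all probe sets, where differences are least certain.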
